A study of Homo sapiens with 22 samples.

Results

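RNA polymerase II (Pol II) and the histone mark H3K4me3 were compared peak by peak and gene by gene in THP-1 cells, a human monocytic leukaemia line, infected with a lentivirus that carried a short hairpin against QKI5 (sh-QKI5). The material was a pair of deposited peak lists from chromatin immunoprecipitation followed by sequencing (ChIP-seq) of these knockdown cells, holding 21358 H3K4me3 peaks and 35094 Pol II peaks on chromosomes 1 to 22, X and Y. These 56452 regions were taken from 119724 in all 6 peak lists of the series, which also holds ChIP-seq of cells with a control hairpin and crosslinking immunoprecipitation (CLIP) of QKI5. The corresponding control pair had 55323 regions. A peak lies on the other mark, in what follows, where it has 1 bp or more in common with any peak of the second list. A gene carried a mark when a peak lay within 1 kb of either outer end of that protein-coding RefSeq gene. Each list pools 2 replicates. There is thus no replicate spread, no test and no known read depth behind the values, and the intervals given are exact (Clopper-Pearson) 95% binomial intervals of counting error only. QKI5 is a nuclear form of QKI, an RNA-binding protein with a known part in splicing, and the series title asks about its activity in transcription. Per the sample labels the control cells received a lentivirus too (sh-control), although the design text of the series calls them untreated.

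H3K4me3 is laid down by SET1 and MLL complexes around the starts of genes, mostly at promoters rich in CpG dinucleotides. Pol II is loaded at the start, commonly pauses shortly downstream of it, and is released into the gene by P-TEFb before it slows again past the polyadenylation site. A promoter can therefore hold the mark with little polymerase, as Polycomb-bound developmental genes are known to do, and polymerase can be found in gene bodies and past 3' ends where H3K4me3 is low. Both marks were carried by 58.7% of all protein-coding genes. Of 12 genes chosen as THP-1 markers, 8 carried both, near that share, among them SPI1, LYZ, CD68 and CEBPA. At their ends ITGAM carried H3K4me3 alone, CSF1R Pol II alone, and MPO and FCGR1A neither. Elsewhere over the gene or 5 kb on each side, Pol II lay at ITGAM, MPO and FCGR1A, and H3K4me3 at CSF1R and FCGR1A. T-cell (4), platelet (3) and epithelial (4) markers carried neither, whereas of 4 B-cell markers CD79B carried both marks and CD79A H3K4me3. Among 4 erythroid markers ALAS2 had a Pol II peak. QKI itself kept an H3K4me3 peak of 8109 bp (10245 bp in control) and a Pol II peak of 6954 bp (6642 bp in control). The knockdown QKI5 CLIP list held 649 peaks against 7300 in control.

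The 300-base promoter windows of 6 genes show how sequence differed between the classes described further on. Each window runs from 250 bases before to 50 bases after a RefSeq gene start (GRCh38.p14), is written 5' to 3' on the strand of the gene, and has every CpG in capitals. Genes were taken by peak width among those in the promoter table. The single-mark genes came from those with no peak of the other mark over the gene and 5 kb on each side, where PAX6 was passed over because its window lay outside its widest H3K4me3 peak. BMI1 (chr10:22320849-22321148, plus strand) and COMMD3 (chr10:22316138-22316437, plus strand) lay under both marks. CYP26B1 (chr2:72147813-72148112, minus strand) and BHLHE41 (chr12:26124988-26125287, minus strand) lay under H3K4me3 alone. PRR23E (chr3:127192881-127193180, plus strand) and KCNRG (chr13:50015194-50015493, plus strand) lay at Pol II alone, the former at the edge of its peak.
BMI1: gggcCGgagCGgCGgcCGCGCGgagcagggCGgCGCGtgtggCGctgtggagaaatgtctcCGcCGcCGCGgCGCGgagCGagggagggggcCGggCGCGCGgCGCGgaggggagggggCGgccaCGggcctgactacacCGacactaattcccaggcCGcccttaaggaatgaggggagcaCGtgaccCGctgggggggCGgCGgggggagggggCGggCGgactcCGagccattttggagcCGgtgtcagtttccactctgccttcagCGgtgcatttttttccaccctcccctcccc
COMMD3: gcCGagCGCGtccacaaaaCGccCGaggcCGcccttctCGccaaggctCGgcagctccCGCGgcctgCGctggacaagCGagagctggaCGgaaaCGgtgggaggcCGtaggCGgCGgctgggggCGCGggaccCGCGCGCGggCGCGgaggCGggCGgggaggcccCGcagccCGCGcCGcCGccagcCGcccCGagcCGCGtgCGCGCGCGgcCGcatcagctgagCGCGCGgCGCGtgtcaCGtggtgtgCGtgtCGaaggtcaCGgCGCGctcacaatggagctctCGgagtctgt
CYP26B1: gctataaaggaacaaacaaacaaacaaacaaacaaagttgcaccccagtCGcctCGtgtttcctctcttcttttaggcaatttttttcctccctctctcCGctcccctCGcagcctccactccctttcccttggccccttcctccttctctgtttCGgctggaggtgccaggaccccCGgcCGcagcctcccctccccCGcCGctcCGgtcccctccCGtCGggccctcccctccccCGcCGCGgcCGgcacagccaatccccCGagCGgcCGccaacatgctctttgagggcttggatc
BHLHE41: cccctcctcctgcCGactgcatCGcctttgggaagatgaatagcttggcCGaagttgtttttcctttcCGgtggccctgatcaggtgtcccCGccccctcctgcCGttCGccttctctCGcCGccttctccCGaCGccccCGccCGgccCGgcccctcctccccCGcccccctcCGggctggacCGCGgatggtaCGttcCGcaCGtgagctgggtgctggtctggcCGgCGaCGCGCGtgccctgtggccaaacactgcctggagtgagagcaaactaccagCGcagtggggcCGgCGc
PRR23E: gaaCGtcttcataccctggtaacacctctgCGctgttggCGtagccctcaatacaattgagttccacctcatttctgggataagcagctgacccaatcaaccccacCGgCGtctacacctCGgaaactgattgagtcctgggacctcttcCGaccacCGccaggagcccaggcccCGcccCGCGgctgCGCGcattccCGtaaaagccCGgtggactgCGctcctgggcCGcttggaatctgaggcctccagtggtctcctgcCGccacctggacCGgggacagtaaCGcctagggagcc
KCNRG: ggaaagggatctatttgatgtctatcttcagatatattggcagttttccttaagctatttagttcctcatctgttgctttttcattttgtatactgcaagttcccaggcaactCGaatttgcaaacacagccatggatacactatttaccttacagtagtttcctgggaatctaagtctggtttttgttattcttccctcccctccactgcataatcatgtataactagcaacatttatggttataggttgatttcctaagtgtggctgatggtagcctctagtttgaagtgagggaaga
The BMI1 and COMMD3 windows hold 36 and 53 CpGs, with observed-over-expected CpG ratios of 0.917 and 1.20. CYP26B1 and BHLHE41 hold 19 and 29, with ratios of 0.763 and 0.826. PRR23E holds 20, with a ratio of 0.712, and KCNRG holds 1, with a ratio of 0.0892. The ratio divides the number of CpGs by the number that the C and G content of the window would give. BMI1 encodes a Polycomb protein, CYP26B1 an enzyme that breaks down retinoic acid, BHLHE41 a circadian transcriptional repressor and KCNRG a regulator of potassium channels.

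In knockdown cells a larger share of H3K4me3 peaks lay on Pol II than of Pol II peaks on H3K4me3. Of 21358 H3K4me3 peaks, 14858 (69.6%, 95% interval 68.9 to 70.2%) overlapped a Pol II peak and 6500 did not. Of 35094 Pol II peaks, 16110 (45.9%, 45.4 to 46.4%) overlapped an H3K4me3 peak and 18984 did not. With equal numbers of the widest peaks of each list the shares were 63.2% and 65.2%, so their order turned. Peaks on the other mark were wider. H3K4me3 peaks had a median width of 3274 bp on Pol II (quartiles 2171 and 4388.5 bp) and 1025 bp off it (632 and 1804 bp). Pol II peaks had a median of 1766 bp on H3K4me3 (1038 and 2831 bp) and 632 bp off it (501 and 1012 bp). The narrowest width in either list, 501 bp, made up 45.5% of the Pol II peaks off H3K4me3 and 8.75% of those on it.

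The share on the other mark followed peak width differently for each mark. For H3K4me3 it was 24.9% at 501 bp, 51.3% above 1000 and up to 2000 bp, 84.2% up to 4000 bp and 97.7% (97.3 to 98.1%) above 4000 bp, where 4817 of 4929 peaks overlapped Pol II. For Pol II it was 14.03% at 501 bp, 66.2% above 1000 and up to 2000 bp and 78.7% (77.7 to 79.8%) up to 4000 bp, and then lower, 74.9% (73.2 to 76.4%), above 4000 bp. No H3K4me3 peak was met by 729 of the 2899 Pol II peaks wider than 4000 bp. The widest of these spanned 26194 bp on chromosome 22 (chr22:46095980-46122173, GRCh38.p5), and another, named after its values were seen, covered 19398 bp at the ends of DDX17, an RNA helicase gene, and KDELR3. Control cells showed the same course over the width classes.

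**Figure D1:**
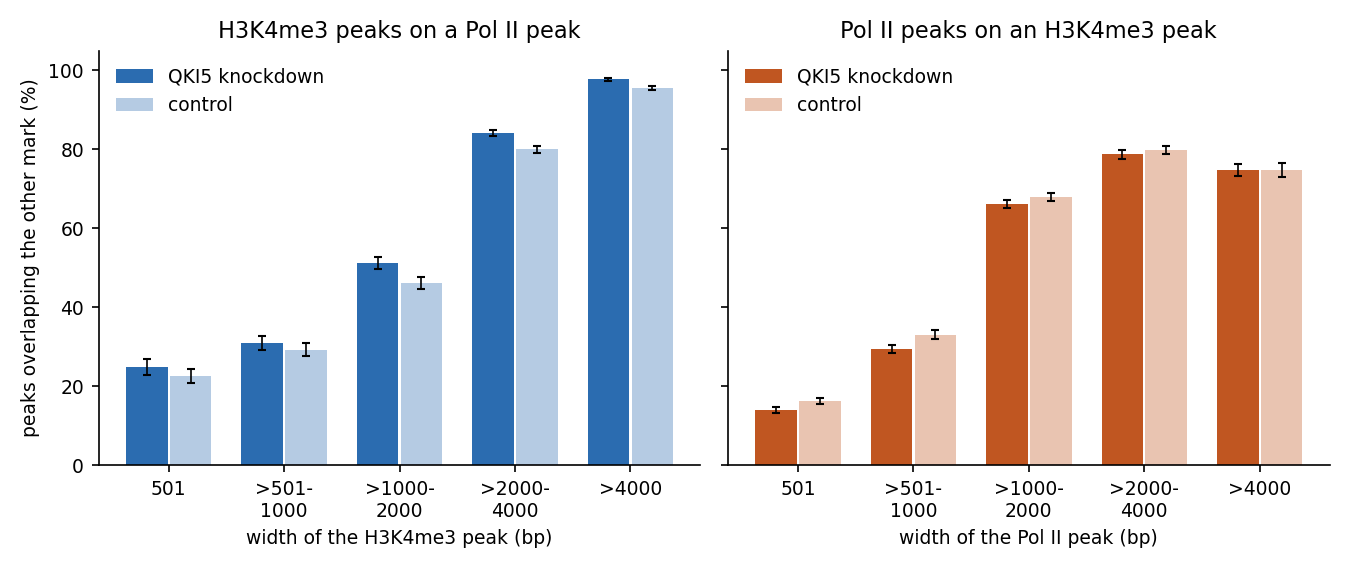
Share of H3K4me3 peaks on a Pol II peak (left) and of Pol II peaks on an H3K4me3 peak (right), in percent, by peak width in bp. Dark bars are the QKI5 knockdown lists, pale bars the control lists, and error bars are 95% binomial intervals. In knockdown the left bars go from 24.9% to 97.7%, while the right bars reach 78.7% and then 74.9%.

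Where the marks met, the Pol II peak was usually contained in the H3K4me3 peak. Among 16463 overlapping pairs, the Pol II peak lay inside the H3K4me3 peak in 9240 (56.1%), the reverse held in 1470 (8.93%), and 5753 (34.9%) overlapped in part. The centres of a pair were a median of 515 bp apart. In all 32.0 Mb lay under both marks, 52.9% of the bases under H3K4me3 and 53.1% of those under Pol II. Of the H3K4me3 peaks on Pol II, 13408 held 1 Pol II peak, 1314 held 2 and 136 held 3 or more, up to 6 in a single domain.

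At genes the marks went together. Both were found at a gene end of 11770 of 20037 protein-coding genes (58.7%, 58.1 to 59.4%), H3K4me3 alone at 1736 (8.66%, 8.28 to 9.06%), Pol II alone at 576 (2.87%, 2.65 to 3.12%) and neither at 5955. In 11633 of the 11770 genes with both marks (98.8%) a gene-end H3K4me3 peak and a gene-end Pol II peak overlapped. The rule favours this, since both had to lie within 1 kb of an end of the same gene. Of the 5955 genes with neither mark at an end, 1288 had H3K4me3 and 1180 Pol II over the gene or 5 kb on each side. Peaks were narrower where a mark stood alone. The widest H3K4me3 peak at a gene end had a median of 3931.5 bp in genes with both marks and 2211.5 bp in genes with H3K4me3 alone, and the widest Pol II peak 2388 bp in genes with both marks and 1347 bp in genes with Pol II alone. Grouped by that H3K4me3 width, Pol II was present in 24 of 86 genes at 501 bp (27.9%, 18.8 to 38.6%), in 49.7% of 1082 genes above 1000 and up to 2000 bp, and in 97.6% of 5818 genes above 4000 bp. Of the 576 genes with Pol II alone, 465 kept that class with a limit of 500 bp and 335 with 5 kb, against 1625 and 1396 of the 1736 with H3K4me3 alone. The nearest H3K4me3 peak lay more than 500 bp and up to 1 kb from a gene end at 214 genes and in the next 500 bp beyond the limit at 161, against 326 and 253 genes for Pol II.

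Genes with H3K4me3 alone and those with Pol II alone differed in how far the missing mark lay. Of the 1736 genes with H3K4me3 alone, 1231 had no Pol II peak anywhere over the gene and 5 kb on each side. In 120 (6.91%) the H3K4me3 peak touched a Pol II peak outside the 1 kb window, and for the other 1616 the nearest Pol II peak was a median of 66.3 kb away, over 100 kb in 640. Of the 576 genes with Pol II alone, 272 had no H3K4me3 over the gene and 5 kb on each side. The Pol II peak of 243 (42.2%) also reached the end of a neighbouring gene that had both marks, and in 64 (11.1%) it touched an H3K4me3 peak outside the window. For the other 512 the nearest H3K4me3 peak was a median of 9.75 kb away, over 100 kb in 5. Among the 272, the Pol II peak of 153 neither touched H3K4me3 nor was shared with a gene that had both marks. Median gene length was 28.4 kb with both marks, 46.6 kb with H3K4me3 alone, 13.5 kb with Pol II alone and 14.2 kb with neither.

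The strand of 15843 genes, known from the RefSeq promoter table, placed H3K4me3 alone mostly at the start and Pol II alone at either end. Among 1291 genes with H3K4me3 alone, the peak was at the start only in 1144 (88.6%, 86.8 to 90.3%). Among 442 with Pol II alone, it was at the start only in 146 (33.0%, 28.7 to 37.6%), at the 3' end only in 200 (45.2%, 40.5 to 50.02%) and at both ends in 96 (21.7%). Counted by end, Pol II stood without H3K4me3 at 285 gene starts (1.80%) and at 2860 gene 3' ends (18.1%). The 3' signal differed by the state of the start. Genes of at least 10 kb were counted here, and those with a neighbouring gene end were kept. Pol II lay within 1 kb of the 3' end in 2323 of 7370 genes with both marks at the start (31.5%, 30.5 to 32.6%). The share was similar with Pol II alone at the start, at 51 of 144 genes (35.4%, 27.6 to 43.8%). It was lower with H3K4me3 alone there, at 100 of 1104 (9.06%, 7.43 to 10.9%), and with neither, at 238 of 2955 (8.05%, 7.10 to 9.09%).

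Around the starts of 3203 genes of at least 10 kb with both marks and no other gene end within 5 kb, Pol II formed a narrower zone inside the H3K4me3 zone. Pol II covered 95.4% of these genes at the start, 58.8% at 1000 bp and 23.3% at 2000 bp downstream. H3K4me3 covered 98.4%, 97.5% and 76.4% at the same points. In 3017 of these genes where both peaks spanned the start, H3K4me3 reached a median of 1111 bp upstream and 2490 bp downstream, and Pol II 752 bp and 1082 bp. The Pol II peak reached further downstream than H3K4me3 in 172 genes (5.70%, 4.90 to 6.59%) and further upstream in 765 (25.4%, 23.8 to 26.9%). Beyond the 3' end Pol II coverage was highest, 16.6% of the 3203 genes, at 2200 bp past the annotated end, where it had been 10.2% at the end itself and 6.49% at 2000 bp before it. H3K4me3 covered 0.593% of those genes at the 3' end. In 721 genes with H3K4me3 alone at the start, H3K4me3 covered 90.01% at the start and 29.3% at 2000 bp downstream, and Pol II covered 1.25% at the 3' end.

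**Figure D2:**
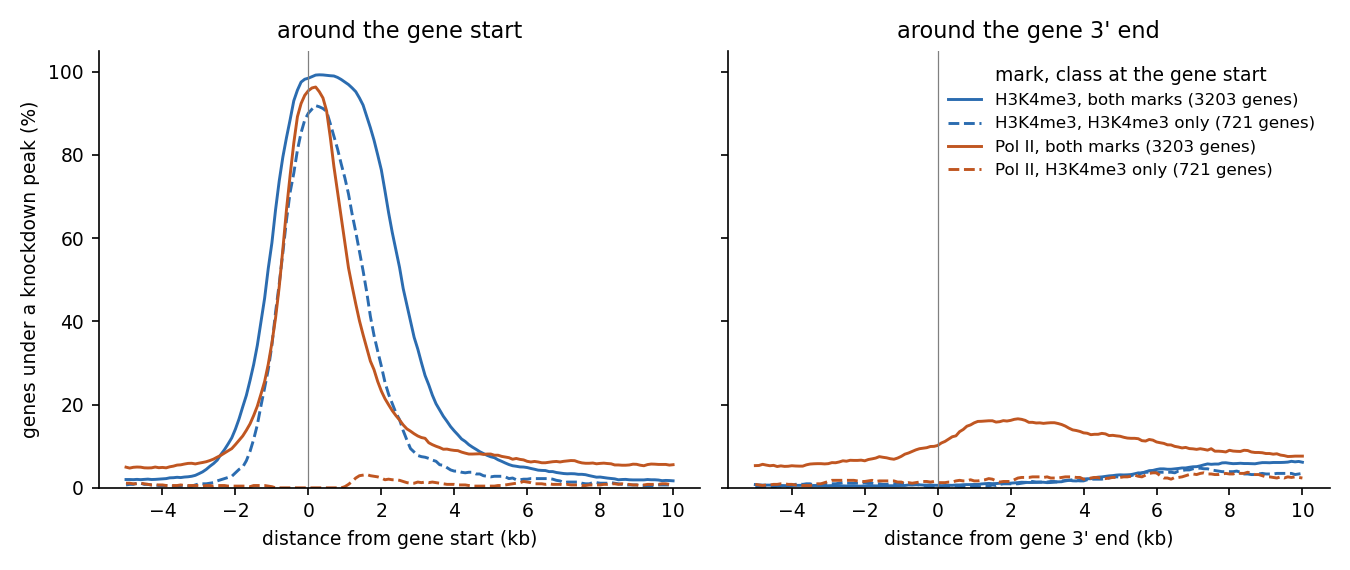
Percent of genes lying under a knockdown peak, by distance in kb from the gene start (left) and the gene 3' end (right), in genes of at least 10 kb with no other gene end within 5 kb. Solid lines are 3203 genes with both marks at the start, dashed lines 721 with H3K4me3 alone, whose lack of Pol II near the start follows from how they were chosen. Pol II of genes with both marks covers 58.8% at 1000 bp downstream of the start, against 97.5% for H3K4me3, and has a second, lower zone past the 3' end.

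Ranked by the narrower of the 2 peaks, genes with both marks were led by BMI1, SATB1, CDKN2C, MEF2D, OTX1 and ZEB2 and their neighbours. The first 4 genes shared 1 domain on chromosome 10: BMI1, COMMD3, their readthrough COMMD3-BMI1, and SPAG6, a sperm flagellar gene. There H3K4me3 covered 37738 bp (chr10:22308901-22346638, GRCh38.p5) and Pol II 38025 bp (chr10:22308475-22346499), against 37764 and 39418 bp in control. SATB1, a chromatin organiser of lymphoid cells, had an H3K4me3 peak of 35883 bp and a Pol II peak of 53101 bp, the latter 27283 bp in control. CDKN2C, which encodes a CDK4 and CDK6 inhibitor, had 28621 bp of H3K4me3 and 24768 bp of Pol II. ZEB2, a transcription factor of myeloid cells, had 19509 and 27009 bp. At MEF2D the widest H3K4me3 peak, 21512 bp (chr1:156486822-156508333), and the widest Pol II peak, 21924 bp (chr1:156454720-156476643), did not overlap. EHBP1 and OTX1 shared a domain of 20805 bp of H3K4me3 and 22274 bp of Pol II. All 10 genes of this ranking carried both marks in control too.

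The widest H3K4me3 peaks without Pol II lay at PAX6, FGF9, ZFHX4 and CYP26B1. Among genes with no Pol II over the gene and 5 kb on each side, the first was PAX6, the eye and brain regulator, with 8541 bp (chr11:31809120-31817660, GRCh38.p5) and the nearest Pol II peak 272167 bp away. In control the PAX6 peak was 8697 bp wide, and the gene ends were without Pol II as well. FGF9, a growth factor gene, followed with 7390 bp, the homeobox zinc-finger gene ZFHX4 with 7273 bp and CYP26B1 with 7191 bp, and their nearest Pol II peaks lay 63427, 282737 and 695593 bp away. ZNF462 had 6754 bp, POU3F3, a neural POU factor, 5983 bp, and LHX5, a LIM homeobox factor, 5967 bp. BHLHE41 and the neighbouring SSPN shared a peak of 6669 bp, and LOC124903570 had one of 6309 bp. ZNF462 was the 1 gene of these 10 whose class differed in control, where a Pol II peak of 731 bp was also called. Without the 5 kb condition the first places went to ALOXE3 (11025 bp) and LKAAEAR1 (9517 bp), whose H3K4me3 peaks touched Pol II outside the window. So did those of CCDC12, LHX4, LOC102724052 and RGMB, and thus of 6 of the first 10 genes.

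The widest Pol II peaks at gene ends without H3K4me3 were mostly shared with a neighbouring gene. The 10 widest cases with no H3K4me3 over the gene and 5 kb on each side were ranked. Of these, 9 had a Pol II peak shared with a gene carrying both marks. In 7 of the 10, PRR23E included, the Pol II peak touched H3K4me3 further off. PRR23E was the exception to the sharing, with a Pol II peak of 28564 bp (chr3:127193086-127221649, GRCh38.p5; 27033 bp in control) that touched H3K4me3 outside its window. KCNRG lay under 26312 bp (chr13:49995138-50021449), and PHKG1, a phosphorylase kinase subunit gene, under 18287 bp. SLC10A1, a bile acid transporter gene of the liver, lay by 17534 bp of Pol II, and SLC4A5 by 14892 bp. MSH4, a meiotic recombination gene, was next to a peak of 14575 bp that was 4630 bp wide in control. TMEM86B, PGAM2, HEATR9 and DNASE1L2 followed with 13453, 13291, 13061 and 11857 bp. The Pol II peaks of PGAM2 and DNASE1L2 came no closer to H3K4me3 than 5646 and 4675 bp. Without the 5 kb condition the ranking also held FRMD8, HSH2D, MYBPH, PTPN6, the gene of the phosphatase SHP-1, and MPIG6B, each at a Pol II peak that touched H3K4me3 outside the window.

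Housekeeping and stimulus-response lists carried both marks almost throughout. Lists are described by counts against the shares over all 20037 genes (58.7% both marks, 8.66% H3K4me3 alone, 2.87% Pol II alone), and no test was made on them. All 30 pausing and elongation factors, all 20 immediate early genes and all 18 heat-shock chaperone genes had both marks. So did 78 of 79 cytosolic ribosomal protein genes, 41 of 42 splicing factor genes, 31 of 33 cell cycle genes, 54 of 59 replication-dependent histone genes and 19 of 20 myeloid transcription factors. Pol II was wider than H3K4me3 in several of them. Median Pol II and H3K4me3 widths were 11512 and 5493 bp in heat-shock genes, 8301.5 and 5418 bp in ribosomal protein genes and 8458.5 and 4998.5 bp in immediate early genes, against 3161.5 and 4429 bp in pausing and elongation factors. The chaperone gene HSPA9 had a Pol II peak of 31127 bp over an H3K4me3 peak of 3282 bp, and HSP90B1 29582 bp over 8501 bp. ZFP36, whose product destabilises cytokine mRNAs, had 21646 bp of Pol II and 13080 bp of H3K4me3, and EGR1 11255 and 5174 bp. HNRNPU had 37601 and 16411 bp, and GFI1, a myeloid repressor, 30641 and 14896 bp.

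Single exceptions in these lists were named by rule. CCND2, a D-type cyclin gene, had 7027 bp of H3K4me3 and no Pol II at its ends, with the nearest Pol II peak 13634 bp from the mark. CDKN1A, which encodes the inhibitor p21, had a Pol II peak of 5454 bp at its 3' end and H3K4me3 elsewhere within the gene or 5 kb of it, the Pol II peak being 1622 bp wide in control. SETD1B, an H3K4 methyltransferase gene, also had H3K4me3 only away from its ends, with 2178 bp of Pol II at an end in knockdown and 949 bp in control. POLR2J, a Pol II subunit gene, had 6124 bp of Pol II, 2253 bp in control, and no H3K4me3 at its ends in either condition. In knockdown the nearest H3K4me3 lay 1643 bp from its Pol II peak. PHF8, a histone demethylase gene, carried neither mark. U2AF1 had an H3K4me3 peak of 501 bp alone. U2AF1 and histone genes such as H3C14, H3C15 and H4C14, which carried neither mark, have near-identical copies in the genome, so their calls are uncertain.

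Among developmental genes H3K4me3 without Pol II was about as frequent as both marks. Of 76 developmental transcription factors, 29 had both marks, 27 (35.5%) had H3K4me3 alone, 0 had Pol II alone and 20 had neither. No Pol II lay over the gene and 5 kb on each side in 26 of those 27. Their H3K4me3 peaks had a median width of 2917 bp, from 501 bp at SOX14 to 8541 bp at PAX6, and the nearest Pol II peak was a median of 84.0 kb away, over 100 kb for 13 of them. After PAX6, LHX5 and POU3F3 came the neural factor NEUROG2 with 4211 bp. FOXA1, a pioneer factor of endodermal tissues, had 3034 bp and the nearest Pol II peak 1272750 bp away, and SOX2, the pluripotency factor, 1028 bp at 721368 bp. In control 25 of the 27 had H3K4me3 alone as well, and HAND2 and PITX1 also had Pol II peaks of 633 and 1393 bp there. Factors with both marks included OTX1, IRX3 (6667 bp of H3K4me3, 11623 bp of Pol II), IRX5 (10078 and 4843 bp) and TWIST1 (7946 and 5285 bp).

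The HOX clusters, which encode positional homeobox factors, split by cluster. Of 13 HOXA genes and cofactors, 10 had both marks. HOXA13, HOXA11, HOXA10 and HOXA9 lay under 1 H3K4me3 domain of 43370 bp, with Pol II peaks of 17185 bp at HOXA13 and HOXA11 and 18289 bp at HOXA10 and HOXA9. MEIS1, a cofactor of HOXA9, had 3281 bp of H3K4me3 alone, 826202 bp from Pol II, in knockdown and 3108 bp alone in control. At their ends HOXA2 had a Pol II peak of 501 bp alone and HOXA6 neither mark. In control HOXA2 had neither mark there, and HOXA6 had 3746 bp of H3K4me3. Both marks were present over each of these genes or 5 kb on each side in knockdown. Of 28 HOXB, HOXC and HOXD genes, 7 had both marks, 13 (46.4%) H3K4me3 alone, 0 Pol II alone and 8 neither. Counted at the gene start only, which the promoter table gives for a part of these genes, H3K4me3 alone was found at 3. In 10 of the 13 no Pol II lay over the gene and 5 kb on each side. HOXB7 and HOXB8 shared 4202 bp of H3K4me3 and 638 bp of Pol II. HOXD8, HOXD9, HOXD11, HOXD12 and HOXD13 had H3K4me3 alone, with widths of 2034 to 2973 bp and Pol II 93770 bp or more away.

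Monocyte, cytokine and interferon genes were mixed. Of 24 monocyte and macrophage genes, 13 had both marks, TYROBP with 6763 bp of H3K4me3 and 12035 bp of Pol II and CD68 with 6293 and 9892 bp, and 7 had neither, among them CD163, MRC1 and MARCO. FCGR3A and ITGAM had H3K4me3 alone at their ends (2287 and 1575 bp). In control both genes had both marks, with Pol II peaks of 1201 and 772 bp. In knockdown the H3K4me3 peak of FCGR3A touched a Pol II peak outside the window. That of ITGAM lay 1521 bp from the nearest Pol II peak. CSF1R had a Pol II peak of 755 bp at its 3' end in knockdown and no mark at its ends in control. VSIG4 had 14180 bp of Pol II at its 3' end, a peak that touched H3K4me3 outside the window. In control VSIG4 had 13465 bp of Pol II and 8335 bp of H3K4me3 at its ends. Of 25 chemokine and cytokine genes, 11 had both marks, such as CCL5 (1736 bp of H3K4me3, 13061 bp of Pol II) and TNF (1839 and 9045 bp). CXCL8, CXCL1, CCL2, CCL20 and IL15 had H3K4me3 alone, with widths of 501 to 2209 bp and the nearest Pol II 33.6 to 704 kb away, and were the same in control. CCL3 had 2638 bp of Pol II alone, whereas in control it also had 1101 bp of H3K4me3, and IL1B had 501 bp of Pol II alone. Of 26 interferon response genes 20 had both marks, IFIT1 (1452 bp) and IFIT3 (1019 bp) had H3K4me3 alone, ISG20 had 501 bp of Pol II alone, and IFI16, IFI44 and IFI44L had neither.

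Genes of other tissues were low in both marks. Of 32 B-cell, T-cell, erythroid and platelet markers 5 had both marks and 23 neither, and of 39 epithelial, neural, liver and muscle genes 7 had both and 28 neither. CD79A (4584 bp) and CD8A (1418 bp) had H3K4me3 alone, as did COL1A1 (1786 bp) and SYT1 (1521 bp). ALAS2 (1463 bp), KLF1 (501 bp), MYOG (2615 bp) and RBFOX3 (501 bp) had Pol II alone, each at the 3' end and not at the start. Of 12 granule and progenitor genes 7 had both marks, PRTN3 and AZU1 sharing 20650 bp of H3K4me3 and 17764 bp of Pol II, and CEBPE had 665 bp of Pol II alone.

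**Figure D3:**
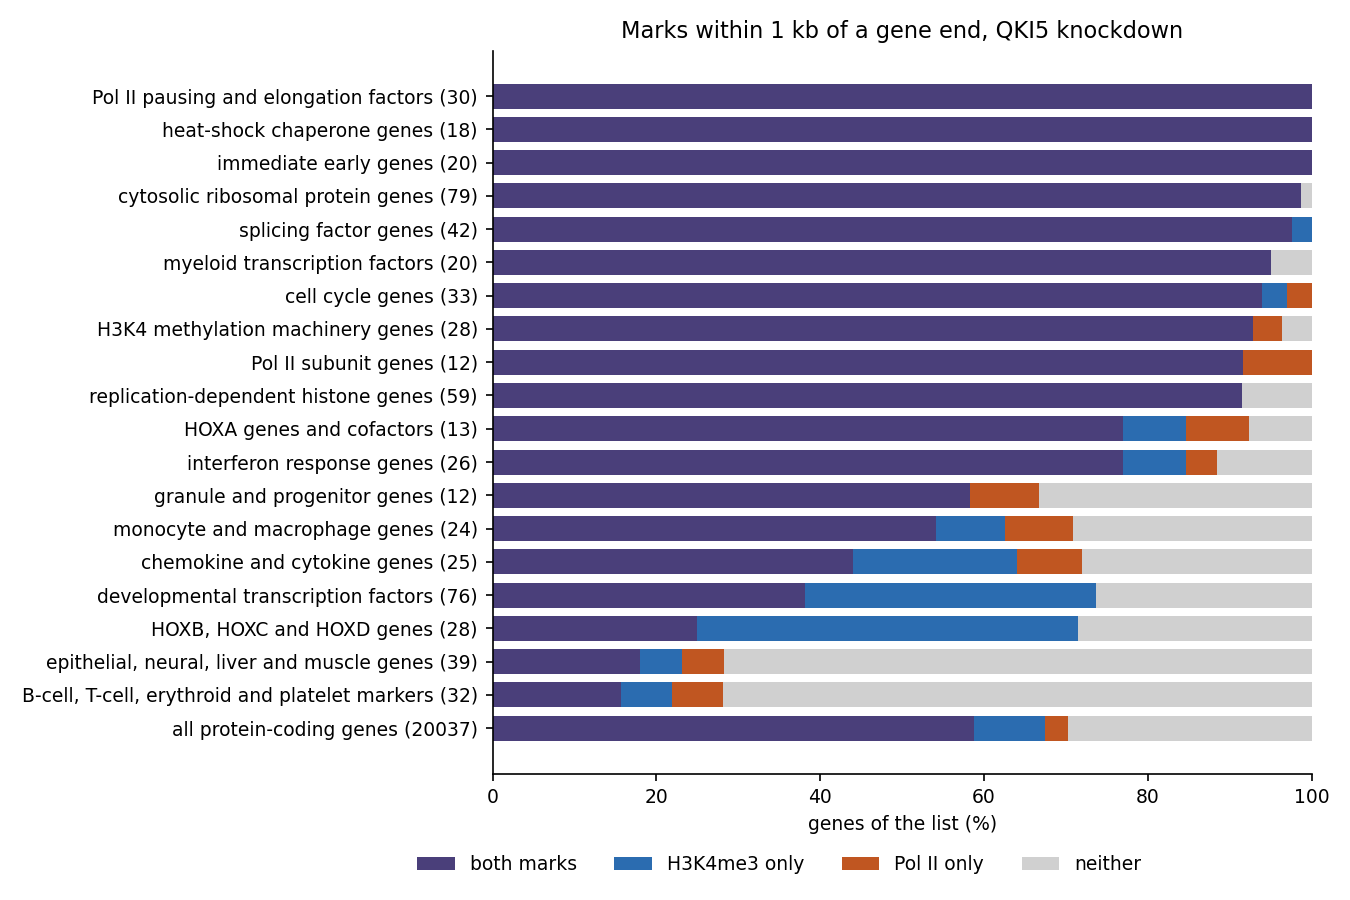
Share of each gene list, in percent, with both marks, H3K4me3 alone, Pol II alone or neither within 1 kb of a gene end in QKI5 knockdown cells, with the number of genes in brackets and all protein-coding genes at the bottom. H3K4me3 alone makes up 46.4% of the HOXB, HOXC and HOXD genes and 35.5% of the developmental transcription factors, against 8.66% of all genes.

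Promoter CpG content differed between the classes. The median observed-over-expected CpG ratio of the 300-base window was 0.851 in 9701 genes with both marks, 0.752 in 1291 with H3K4me3 alone, 0.351 in 442 with Pol II alone and 0.285 in 4409 with neither. A ratio of 0.6 or more was found in 86.0%, 70.7%, 31.7% and 22.5% of them. Among genes with no trace of the other mark over the gene and 5 kb on each side, the median was 0.755 for H3K4me3 alone (920 promoters) and 0.279 for Pol II alone (201 promoters). Median GC content was 65.7% with both marks, 66.0% with H3K4me3 alone and 52.0% with neither.

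Both classes with H3K4me3 had CpG-rich starts, and they differed in the ETS motif. A set of 7 motifs was searched on both strands of the windows, with genes classed by the marks at the start alone. The ETS core CCGGAAG was found in 1997 of 9379 promoters with both marks (21.3%, 20.5 to 22.1%), in 60 of 1354 with H3K4me3 alone (4.43%, 3.40 to 5.67%), in 15 of 285 with Pol II alone (5.26%, 2.98 to 8.53%) and in 14.2% of all 15843. Since the letters include a CpG, the count was repeated in promoters with a ratio of 0.6 or more. There the shares were 23.1% of 8178 with both marks and 4.69% of 1002 with H3K4me3 alone, a difference of -18.4 points (Newcombe interval -19.9 to -16.7), 15.5% of 84 with Pol II alone and 8.63% of 1124 with neither. GAGGAAG, the core bound by the myeloid ETS factor PU.1, did not separate these classes, at 13.02% with both marks and 13.5% with H3K4me3 alone (difference 0.450 points, -1.66 to 2.81).

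Of the other motifs in CpG-rich promoters, CCAAT was found in 37.1% with both marks and 25.4% with H3K4me3 alone (difference -11.7 points, -14.5 to -8.70), and GCATGCG, the core of the NRF1 motif, in 7.84% and 3.29% (-4.54 points, -5.66 to -3.13). The GC box GGGCGG was found in 77.7% and 80.7% (3.01 points, 0.298 to 5.50). TATAAA was found in 4.28% and 6.09% (1.81 points, 0.411 to 3.51). TGANTCA, the AP-1 motif, was found in 3.17% and 2.30%, a difference of -0.872 points with an interval of -1.73 to 0.309. Over all promoters, TATAAA was found in 5.25% with both marks, 6.79% with H3K4me3 alone, 9.47% with Pol II alone and 19.3% with neither, and in 9.75% of all. In all promoters the AP-1 motif was present in 5.70%, CCAAT in 36.4%, GGGCGG in 58.3%, GAGGAAG in 14.2% and GCATGCG in 5.16%. CCGGAAG and GAGGAAG both end in GGAAG, so the same bases can hold only 1 of them.

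**Figure D4:**
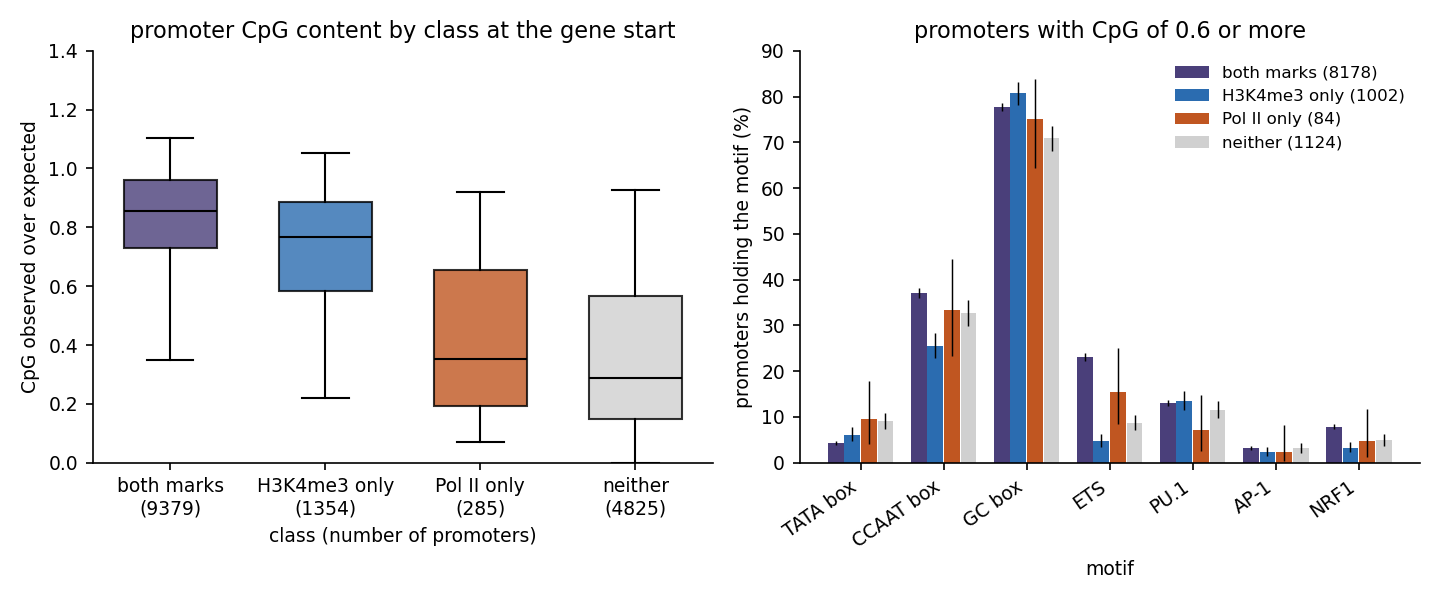
Left, CpG observed over expected in 300-base promoter windows by the marks at the gene start, as medians with quartile boxes and whiskers from the 5th to the 95th percentile. Right, percent of promoters with a ratio of 0.6 or more that hold each motif, with 95% binomial intervals. The ETS motif is in 23.1% of promoters with both marks and 4.69% with H3K4me3 alone, while the PU.1 motif is in 13.02% and 13.5%.

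Peaks that lacked the other mark lay in different places. Of 18984 Pol II peaks off H3K4me3, 10767 (56.7%) lay inside a protein-coding gene away from its ends, with a median width of 501 bp, and 3076 (16.2%) lay at a gene end. Of 6500 H3K4me3 peaks off Pol II, 2482 (38.2%) lay inside a gene and 1786 (27.5%) at a gene end, the latter with a median width of 2065 bp. A further 1543 (23.7%) of those H3K4me3 peaks and 3909 (20.6%) of those Pol II peaks were neither in nor at a protein-coding or long non-coding gene. By contrast 67.5% of H3K4me3 peaks on Pol II and 63.1% of Pol II peaks on H3K4me3 lay at a protein-coding gene end. Pol II peaks off H3K4me3 stayed near the mark, with a median of 10.01 kb to the nearest H3K4me3 peak and 2.47% over 100 kb. H3K4me3 peaks off Pol II were a median of 33.3 kb from the nearest Pol II peak, and 27.2% were over 100 kb away.

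Among the non-coding genes, tRNA genes, which RNA polymerase III transcribes, had H3K4me3 alone far more often than Pol II alone. Of 443 tRNA genes 154 (34.8%) had both marks within 1 kb, 111 (25.1%, 21.1 to 29.4%) H3K4me3 alone and 5 (1.13%, 0.367 to 2.61%) Pol II alone. With 368 tRNA genes that had no protein-coding gene end within reach, the counts were 90, 103 and 5. Of the 111 genes, 100 had H3K4me3 alone in control too. tRNA genes are short and clustered, so several share a peak, and 71 H3K4me3 peaks off Pol II lay within 1 kb of a tRNA gene against 4 Pol II peaks off H3K4me3. Among genes of small RNAs that Pol II mostly makes, the order was the other way for snoRNA and miRNA genes. The snRNA counts were too few to order. H3K4me3 alone and Pol II alone were found at 5 and 9 of 154 snRNA genes, at 25 (2.09%) and 75 (6.26%) of 1199 snoRNA genes, and at 63 (3.29%) and 152 (7.95%) of 1913 miRNA genes, many of which lie inside longer host genes. Of 18303 long non-coding RNA genes 18.9% had both marks, 5.40% H3K4me3 alone and 2.94% Pol II alone.

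**Figure D5:**
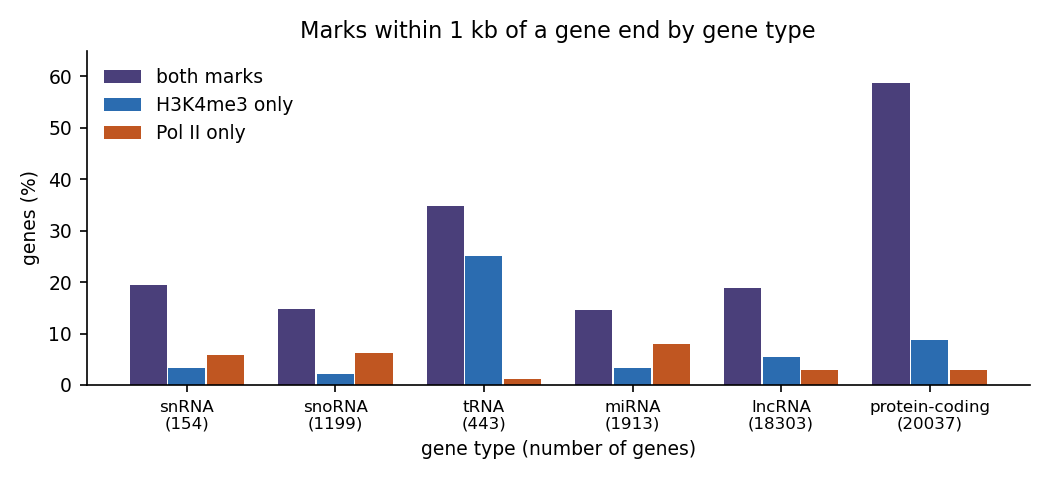
Percent of genes with both marks, H3K4me3 alone or Pol II alone within 1 kb of a gene end in QKI5 knockdown cells, by gene type, with the number of genes in brackets. H3K4me3 alone exceeds Pol II alone at tRNA genes (25.1% and 1.13%), and the order is reversed at snoRNA and miRNA genes. The snRNA counts are too few to order.

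QKI5-bound RNA, as mapped by CLIP, came mainly from genes with both marks. Of 649 knockdown CLIP peaks 494 could be assigned to a protein-coding gene. A CLIP peak was found in 307 of 11770 genes with both marks (2.61%, 2.33 to 2.91%), in 17 of 1736 with H3K4me3 alone (0.979%, 0.571 to 1.56%), in 11 of 576 with Pol II alone (1.91%, 0.957 to 3.39%) and in 30 of 5955 with neither (0.504%, 0.340 to 0.718%). Over all genes the share was 1.82%. Longer genes more often had a CLIP peak. Among genes of 60 kb or more, CLIP was found in 160 of 3293 with both marks (4.86%, 4.15 to 5.65%), 13 of 772 with H3K4me3 alone (1.68%, 0.900 to 2.86%) and 6 of 76 with Pol II alone (7.89%, 2.95 to 16.4%). In control CLIP the shares over all lengths were 19.6%, 9.04%, 9.90% and 4.32%. RNA abundance was not measured in these lists, and its part in the difference was not tested.

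Set against control, knockdown had a slightly larger share of H3K4me3 on Pol II and a slightly smaller share of Pol II on H3K4me3. The H3K4me3 share was 69.6% in knockdown and 65.6% in control, 3.94 points higher (Newcombe interval 3.06 to 4.82). The Pol II share was 45.9% and 47.4%, a difference of -1.47 points (-2.22 to -0.722), with 35094 against 33370 Pol II peaks. Without replicates these differences between 2 pairs of lists cannot be told apart from differences between cultures or in depth. Class by class, 11137 of the 11770 genes with both marks (94.6%) had both in control, 1412 of 1736 with H3K4me3 alone (81.3%) had H3K4me3 alone, and 350 of 576 with Pol II alone (60.8%) had Pol II alone. Another 576 genes had both marks in knockdown and H3K4me3 alone in control, and 225 genes the reverse. Of Pol II peaks off H3K4me3, 37.8% (37.1 to 38.4%) overlapped a control Pol II peak, against 84.9% (84.4 to 85.5%) of those on H3K4me3. For H3K4me3 peaks 77.9% off Pol II and 96.4% on Pol II overlapped a control H3K4me3 peak.

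Chromosomes differed in the mix of classes. Pol II alone was most frequent on chromosome 19, at 81 of 1451 genes (5.58%), followed by chromosome 16 with 43 of 854 (5.04%), and H3K4me3 alone on chromosome 13 (47 of 338 genes, 13.9%) and chromosome 4 (101 of 770, 13.1%). On chromosomes 19 and 22, 78.3% and 79.0% of H3K4me3 peaks lay on Pol II, against 61.0% on chromosome 4. On the X chromosome 67.2% of the 762 Pol II peaks lay on H3K4me3, against 38.6% of 2025 on chromosome 5.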

How the data were processed

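ChIP-seq peak lists of THP-1 cells with a QKI5 or a control hairpin were used, and 22 samples make up the series. The submitters' processing notes name HOMER and GRCh38.p5. For the aligner, the settings of the peak caller and the use of inputs, nothing is stated in the sources used here. The score that the authors deposited with each ChIP peak is constant, so peaks were ranked by width. Per the values, the authors' CLIP lists hold a −log10 p-value and a log2 enrichment per peak, neither of which was used to filter. Depth is unknown. Peaks were joined to 20037 protein-coding genes of a RefSeq table (GRCh38.p14, whose primary chromosomes share coordinates with p5). Sequences, strand and starts came from the RefSeq promoter table (GRCh38.p14), which held 15843 of these genes. CLIP peaks were matched by gene identifier, and 494 of 649 knockdown and 6057 of 7300 control peaks matched a protein-coding gene. In each class the 10 genes with the widest gene-end peaks were named, again for those without the other mark over the gene and 5 kb, and, for each of 19 lists (616 entries, all matched), up to 4 members of each class by width and every member of a class of at most 5. The members, lists and rules were chosen with earlier results of these data known. Python 3.11.15, pandas 2.3.3, numpy 2.4.6 and scipy 1.17.1 were used, and the overlap, distance, class and CpG steps were tested on simulated data. Alternatives changed the overlap, the distance, the peaks and the genes used.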

Additional observations from a re-analysis of the deposited data

How the results depend on the processing

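Each list pools both replicates, so neither a replicate could be left out nor error between cultures measured. No paired analysis was possible because the result comes from no test and the pooled lists carry no replicate. Shares of peaks depended on the overlap rule and on which peaks were used. The share of H3K4me3 peaks on Pol II (69.6%) was 68.2% where 50% of the narrower peak had to be covered, 71.1% for peaks within 1 kb and 63.2% with equal numbers of the widest peaks of each list. The share of Pol II peaks on H3K4me3 (45.9%) was 44.0%, 50.05% and 65.2% under those settings and 57.7% without peaks of 501 bp, so the order of the shares turned with equal numbers of widest peaks. Genes with both marks numbered 6170 among the 12766 with no neighbouring gene end. Their share there was 48.3%, against 58.7% of all genes. H3K4me3 alone made up 10.7% of that set and neither mark 38.8%, against 8.66% and 29.7% of all genes. Genes with Pol II alone (576) numbered 381 with equal numbers of widest peaks, 285 at the gene start only, 279 with no neighbouring gene end, 272 with no H3K4me3 over the gene and 5 kb, and 249 at any start in the promoter table, a setting chosen after seeing the data. Among the HOXB, HOXC and HOXD genes, H3K4me3 alone (13) was counted at 3 by the gene start only and at 4 by any start in the table, which lacks many of these genes. The counts of genes with H3K4me3 alone stayed between 1231 and 2190 and the promoter CpG medians stayed within their intervals without peaks of 501 bp.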
